A study of Mus musculus with 9 samples.

Results

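A group of 10 genes of the NF-kB system was followed in mouse blood after polytrauma (PT) with and without hemorrhagic shock (HS): the subunits Rela, Relb, Rel and Nfkb2, and the inhibitors Nfkbia, Nfkbie, Nfkbiz, Nfkbid, Bcl3 and Tnfaip3. The 10 members were taken by name from the 18194 genes with a value, and were chosen with earlier results of these data known. The study itself names Nfkbia among its upregulated genes, which it read as altered by the added shock. Its list joined genes that differed between PT + HS and PT with genes that differed from Ctrl in PT + HS but not in PT. All 10 were measured, on 19 probe sets, and none was removed by a filter on low values. A probe set is a group of short probes on the array that together give 1 value, and for each gene the one with the highest mean over the 9 arrays was used. Blood of 9 C57BL/6 mice aged 8 to 9 weeks was measured, with 3 mice per group and 1 array per mouse. PT + HS mice received injuries to the head, the chest (blunt) and the thigh bone with its soft tissue, and were bled from 1 h later to an arterial pressure of 30 mmHg for 60 min. Fluid at 4 times the volume of blood taken was then given within 30 min, with norepinephrine as needed. PT mice had the same injuries without the bleeding. Bleeding, the fluid given after it and norepinephrine therefore cannot be told apart in PT + HS against PT. Both groups were under sevoflurane with buprenorphine, carried catheters and were sampled 4 h after the trauma. Ctrl mice were healthy, had no injury, and were sampled as soon as anesthesia had been induced, so that trauma, anesthesia time, analgesia and catheters cannot be told apart in a comparison with Ctrl. The RNA came from unsorted whole blood.

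NF-kB is a family of transcription factors that act as pairs of subunits. In a resting cell the pairs are held in the cytoplasm by inhibitors of the IkB type, such as the products of Nfkbia and Nfkbie. Signals from toll-like receptors and from the receptors of interleukin-1 and tumor necrosis factor lead to the breakdown of these inhibitors, the pairs enter the nucleus, and the genes they switch on include those of their own inhibitors, Nfkbia and Tnfaip3 among them. Nfkbiz, Nfkbid and Bcl3 encode inhibitor-like proteins of the nucleus that modulate transcription there. In blood leukocytes the system governs the early inflammatory response.

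The 250 bases before the start site are shown for 3 inhibitors that the results turn on, Nfkbia, Tnfaip3 and Nfkbie, since feedback genes are known to carry kappa B sites there. The sequences are those of RefSeq for GRCm38.p6, written 5′ to 3′ along the gene. Capitals mark each 10-base match to the kappa B consensus on either strand, where overlapping matches were counted apart. The window of Nfkbia lies at chr12:55492648-55492897 on the minus strand, that of Tnfaip3 at chr10:19015411-19015660 on the minus strand and that of Nfkbie at chr17:45555450-45555699 on the plus strand.
Nfkbia: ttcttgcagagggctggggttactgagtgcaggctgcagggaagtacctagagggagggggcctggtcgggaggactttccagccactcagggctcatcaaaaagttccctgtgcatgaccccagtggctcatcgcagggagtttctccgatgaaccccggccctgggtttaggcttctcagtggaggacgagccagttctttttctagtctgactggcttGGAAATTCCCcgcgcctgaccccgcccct
Tnfaip3: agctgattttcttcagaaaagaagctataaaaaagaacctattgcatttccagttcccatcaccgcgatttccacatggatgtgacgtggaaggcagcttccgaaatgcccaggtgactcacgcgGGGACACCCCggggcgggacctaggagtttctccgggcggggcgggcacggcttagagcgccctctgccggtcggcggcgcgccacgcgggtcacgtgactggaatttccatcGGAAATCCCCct
Nfkbie: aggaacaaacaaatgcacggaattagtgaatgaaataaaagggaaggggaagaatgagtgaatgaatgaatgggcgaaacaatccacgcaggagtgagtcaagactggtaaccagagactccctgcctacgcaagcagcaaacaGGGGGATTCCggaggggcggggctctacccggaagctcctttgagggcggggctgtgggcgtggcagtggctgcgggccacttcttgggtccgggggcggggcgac
For Tnfaip3 the table holds 2 start sites, and the window of the other, not shown, held no match. Nfkbia had 1 match, which began 29 bases before the start. The window shown for Tnfaip3 had 2 matches, 125 and 12 bases before it, and Nfkbie had 1, 106 bases before it. Of the members, 8 were matched by symbol to the promoter table, with 13 windows, and 8 of these windows (of 6 members) held a match. Over all 32851 windows of 250 bases in the table, 7.25% held one. A match of letters does not show that a factor binds there.

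The array of PT replicate 2 was unlike the rest. Its correlation with them over all genes was 0.900 to 0.944, and no pair of the remaining 8 arrays was below 0.958. Among the members it was the lowest of the 9 arrays in 6 of 10, against 23.1% of all genes, and PT replicate 3 was the highest in 5 of 10, against 14.8%. For the differences of the members that involve PT, the value without PT replicate 2 is therefore given as well. The number of arrays limits the precision, and 3 against 3 arrays cannot give an exact two-sided permutation p below 0.1.

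With all 9 arrays no member passed the thresholds in the model that pools the spread of the 3 groups. Values are log2 expression, so that a difference of 1 is a 2-fold change. A gene passed the study's thresholds with an unadjusted p under 0.05 from limma and a change of at least 1.5-fold. Of the 10 members 0 passed between PT + HS and PT (1.12% of all genes), 0 between PT + HS and Ctrl (3.28%) and 0 between PT and Ctrl (3.67%). The number of members with an unadjusted p under 0.05 was also 0 in each comparison, where 2.87%, 4.86% and 5.82% of all genes had one in this order. An adjusted p under 0.05 from limma was reached by 0 members, and by 0, 0.00550% and 0% of all genes, and no member had one below 0.960. The methods' t-test gave 0, 3 (Nfkbia, Nfkbie and Nfkbiz) and 0 members at the same thresholds, where 0.418%, 2.98% and 1.61% of all genes passed it, and none after adjustment. That test uses only the spread of the arrays of the 2 groups compared. The median difference over the members was -0.04, 0.00 and -0.06, beside 0.00, -0.01 and 0.00 over all genes. The standard errors were 0.18 to 0.54. A difference of 1.5-fold thus lies within the 95% interval for every member in PT + HS against PT, and for most in the other comparisons. No member was without overlap between PT and Ctrl, where 9.44% of all genes were. In PT + HS against Ctrl 2 members lay higher and 2 lower without overlap, as did 6.55% and 6.68% of all genes. In PT + HS against PT 1 member lay lower without overlap (3.56% of all genes). The comparisons share arrays and are not independent of each other.

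**Figure D1:**
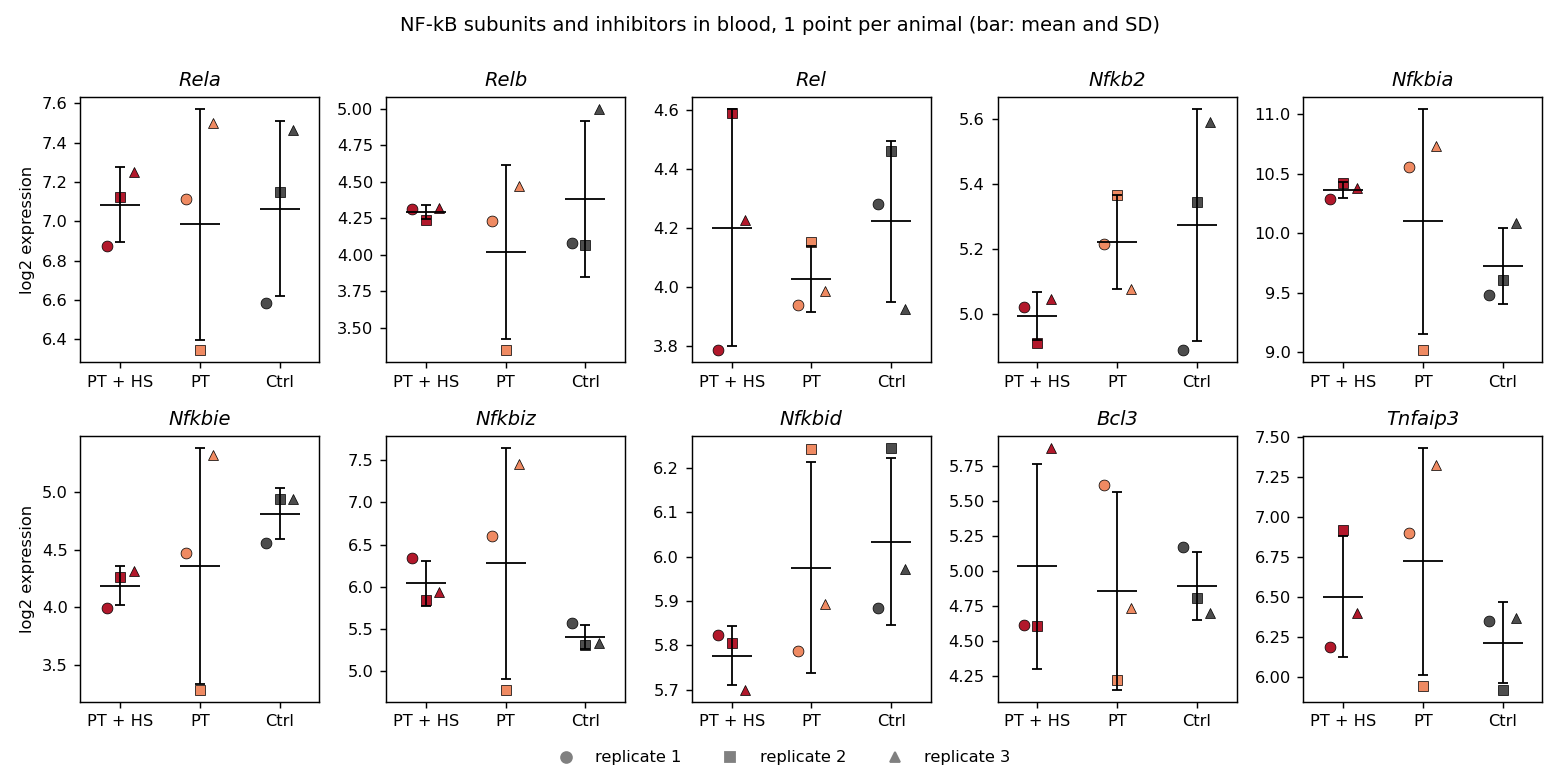
Log2 expression (y axis, a scale per gene) of the 10 genes in PT + HS, PT and Ctrl blood, with 1 point per animal and the mean and SD as bars. PT replicate 2 (the square in the PT column) is the lowest of the 9 points in 6 of the 10 genes.

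**Figure D2:**
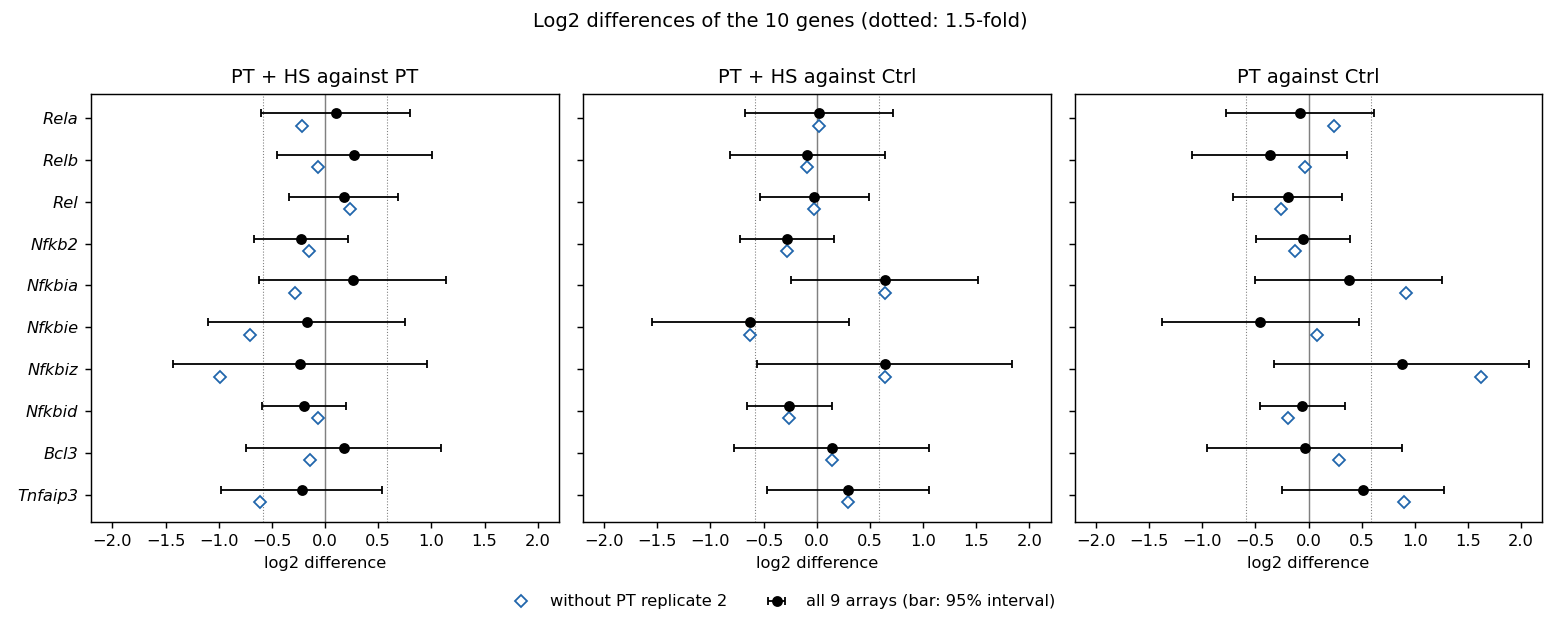
Log2 difference of each gene in the 3 comparisons with the 95% interval from limma (filled), and the difference without PT replicate 2 (open). All intervals with 9 arrays include 0, whereas the open points of Nfkbia, Nfkbiz and Tnfaip3 lie beyond 1.5-fold between PT and Ctrl.

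Leaving out PT replicate 2 brought 4 of the inhibitors past the thresholds. It was the lowest PT array in each of these 4, so that leaving it out had to raise their PT mean. Higher values in PT against Ctrl and lower ones in PT + HS against PT were thus favored in advance, and the calls are no independent support. The shares over all genes include genes in which this array was not the lowest. Nfkbia, Nfkbiz and Tnfaip3, 3 members, then passed the thresholds as higher in PT than in Ctrl (4.22% of all genes passed as higher). In PT + HS against Ctrl 2 passed as higher, Nfkbia and Nfkbiz (2.52%), and 1 as lower, Nfkbie (2.04%). In PT + HS against PT 3 passed as lower, Nfkbie, Nfkbiz and Tnfaip3 (3.31%). On the other probe sets of these genes none passed in PT + HS against PT without that array. The differences there were -0.16 for Nfkbie, 0.06 and -0.57 for Nfkbiz and 0.12 for Tnfaip3. Only Nfkbiz between PT and Ctrl also had an adjusted p under 0.05 from limma (adjusted p = 0.0454), as did 0.258% of all genes there, 0.291% in PT + HS against Ctrl and 0% in PT + HS against PT. The other probe sets of Nfkbiz gave 0.12 and 0.90 between PT and Ctrl without that array, beside 1.62 on the one used. No subunit passed in any of the 3 comparisons. The PT group then holds 2 animals, and the difference between PT + HS and Ctrl keeps its size and changes only in its estimated error.

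Nfkbia, the classical inhibitor that is rebuilt after each activation, was the most strongly measured member. It had 10.29, 10.42 and 10.38 in the PT + HS mice, 10.55, 9.01 and 10.73 in PT replicates 1 to 3, and 9.48, 9.60 and 10.09 in the Ctrl mice. All PT + HS values lay above all Ctrl values, by 0.20 at the nearest pair, whereas the PT values lay on both sides of the other groups. No overlap in this direction was seen in 6.55% of all genes. PT + HS averaged 10.36 ± 0.07 and Ctrl 9.72 ± 0.32 (SD, 3 animals each), a log2 difference of 0.64 (standard error 0.39, 1.56-fold, adjusted p = 0.999 from limma). In PT the mean was 10.10 ± 0.95 (SD, 3 animals), which differed from Ctrl by 0.38 (standard error 0.39).

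Leaving out PT replicate 2 moved these values. PT then differed from Ctrl by 0.92 (standard error 0.21, 1.89-fold, adjusted p = 0.152 from limma), and PT + HS from Ctrl by 0.64 with a standard error of 0.19 (adjusted p = 0.294). The difference between PT + HS and PT was 0.26 (standard error 0.39) with all arrays and -0.28 (standard error 0.21) without that array, so that its sign depended on 1 animal. Its 95% interval with all arrays ran from -0.62 to 1.14.

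The same pattern was seen on the other probe sets of Nfkbia. On 5 of 5 probe sets PT replicates 1 and 3 both lay above every PT + HS and every Ctrl array, and on 4 of 5 PT replicate 2 was the lowest of the 9 arrays. PT + HS lay above Ctrl without overlap on 4 of 5. In PT + HS against Ctrl the differences were 0.64, 0.73, 0.63, 0.99 and 0.58, from the brightest probe set to the dimmest, of which the one with 0.99 passed the thresholds (standard error 0.32). Probe sets of 1 gene were read on the same arrays and are not replicates.

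**Figure D3:**
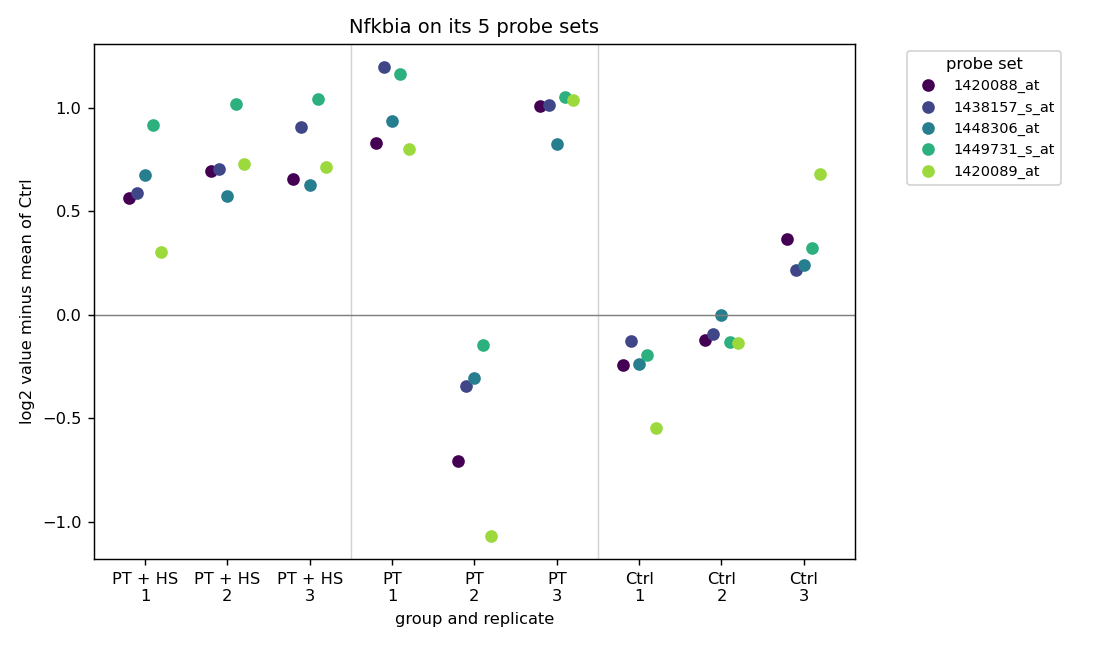
Log2 value of Nfkbia minus the mean of the 3 Ctrl arrays (y axis) on each array (x axis, group and replicate), with 1 colour for each of its 5 probe sets. PT replicates 1 and 3 lie above every Ctrl array on all 5, and PT replicate 2 is the lowest of the 9 arrays on 4.

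Nfkbiz, a nuclear member that is needed for a second set of inflammatory genes in mouse macrophages, showed the largest difference of the members in PT against Ctrl. It had 6.34, 5.84 and 5.93 in the PT + HS mice, 6.60, 4.78 and 7.46 in PT replicates 1 to 3, and 5.57, 5.31 and 5.33 in the Ctrl mice. PT + HS lay above Ctrl in all animals (6.55% of all genes). PT spread from below the lowest Ctrl mouse to above the highest PT + HS mouse. Against Ctrl, Nfkbiz differed by 0.64 for PT + HS and by 0.88 for PT (standard error 0.54 for both). Without PT replicate 2 it was 0.64 in PT + HS (standard error 0.24, adjusted p = 0.485 from limma) and 1.62 in PT (standard error 0.27, 3.08-fold, adjusted p = 0.0454). PT + HS differed from PT by -0.24 (standard error 0.54) with all arrays and by -0.99 (standard error 0.27, adjusted p = 0.550) without that array. Of its other probe sets, both dimmer, one gave 0.18 and -0.01 and the last 0.33 and 0.60 for PT + HS and PT against Ctrl. Without PT replicate 2 these gave 0.12 and 0.90 for PT against Ctrl, so that the probe sets did not give the same size.

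Tnfaip3 encodes an enzyme that removes activating ubiquitin chains from signaling proteins upstream of NF-kB. Its values were 6.18, 6.92 and 6.40 in the PT + HS mice, 6.90, 5.94 and 7.33 in PT replicates 1 to 3, and 6.35, 5.92 and 6.37 in the Ctrl mice. The groups overlapped in every comparison, with PT replicate 3 highest. PT differed from Ctrl by 0.51 (standard error 0.34), and by 0.90 without PT replicate 2 (standard error 0.26, 1.87-fold, adjusted p = 0.272 from limma). PT + HS differed from Ctrl by 0.29 (standard error 0.34) and from PT by -0.22 (standard error 0.34), or by -0.61 without PT replicate 2 (standard error 0.26, adjusted p = 0.657). A second probe set was weakly measured with a mean of 3.58 and gave 0.22 and 0.31 for PT + HS and PT against Ctrl, the last of which was 0.10 without PT replicate 2.

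Nfkbie, a further cytoplasmic inhibitor, lay in the opposite direction in PT + HS. It had 4.00, 4.26 and 4.31 in the PT + HS mice, 4.48, 3.28 and 5.33 in PT replicates 1 to 3, and 4.56, 4.94 and 4.95 in the Ctrl mice. All PT + HS values were below all Ctrl values, by 0.25 at the nearest pair (6.68% of all genes), and PT enclosed both groups. The difference between PT + HS and Ctrl was -0.63 (standard error 0.42), and with a standard error of 0.23 it passed the thresholds without PT replicate 2 (adjusted p = 0.476 from limma). PT differed from Ctrl by -0.45 (standard error 0.42), by 0.08 without PT replicate 2 and by -0.94 without PT replicate 3, which passed the thresholds. PT + HS differed from PT by -0.17 (standard error 0.42) and by -0.71 without PT replicate 2 (standard error 0.26, adjusted p = 0.636). The gene was weakly measured, with a mean of 4.46 over the arrays, where the median gene had 4.29, and its other probe set gave -0.33 and -0.11 for PT + HS and PT against Ctrl.

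Nfkbid and Bcl3, the other nuclear members, did not pass with or without PT replicate 2. Nfkbid, which is required for the development of some B cells in mice, had 5.82, 5.81 and 5.70 in the PT + HS mice, 5.79, 6.24 and 5.89 in PT replicates 1 to 3, and 5.88, 6.24 and 5.97 in the Ctrl mice. PT + HS lay below Ctrl without overlap (6.68% of all genes), but only by 0.06 at the nearest pair. The difference was -0.26 (standard error 0.18, 95% interval -0.65 to 0.14). It differed by -0.20 in PT + HS against PT and by -0.06 in PT against Ctrl, or by -0.06 and -0.19 without PT replicate 2. Bcl3, which binds pairs of subunits on DNA, had 4.62, 4.60 and 5.88 in the PT + HS mice, 5.62, 4.22 and 4.73 in PT replicates 1 to 3, and 5.17, 4.81 and 4.70 in the Ctrl mice. Here single animals in PT + HS and PT stood above the rest, and the groups overlapped. Its differences were 0.14 for PT + HS and -0.04 for PT against Ctrl and 0.18 between PT + HS and PT (standard error 0.41 for each). Those that involve PT were 0.28 against Ctrl and -0.14 for PT + HS against PT without PT replicate 2.

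None of the 4 subunits passed the thresholds in any comparison. Rela, the subunit with the main activating domain in most cells, had 6.88, 7.12 and 7.25 in the PT + HS mice, 7.11, 6.34 and 7.50 in PT replicates 1 to 3, and 6.58, 7.15 and 7.46 in the Ctrl mice. The 3 groups covered one another, and PT + HS differed from Ctrl by 0.02 (95% interval -0.68 to 0.72) and from PT by 0.10 (95% interval -0.60 to 0.80), or by -0.22 without PT replicate 2. In PT against Ctrl its difference was -0.08, and 0.24 without that array. Nfkb2, whose product is both an inhibitor and the precursor of a subunit, had 5.02, 4.91 and 5.05 in the PT + HS mice, 5.22, 5.37 and 5.08 in PT replicates 1 to 3, and 4.89, 5.34 and 5.59 in the Ctrl mice. It was the only member without overlap between PT + HS and PT (3.56% of all genes in this direction), with PT + HS lower by 0.03 at the nearest pair and a difference of -0.23 (standard error 0.20), or -0.15 without PT replicate 2. It differed by -0.05 in PT against Ctrl, and by -0.13 without that array. The second probe set of Nfkb2 gave 0.07 for PT + HS against PT.

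Relb, the partner of the Nfkb2 product in the alternative pathway, had 4.31, 4.24 and 4.32 in the PT + HS mice, 4.23, 3.35 and 4.47 in PT replicates 1 to 3, and 4.08, 4.07 and 5.00 in the Ctrl mice. Rel, a subunit typical of lymphocytes, had 3.79, 4.59 and 4.23 in the PT + HS mice, 3.94, 4.15 and 3.99 in PT replicates 1 to 3, and 4.28, 4.46 and 3.93 in the Ctrl mice. Both had a mean below the median of all genes, at 4.23 and 4.15, and their groups overlapped in all comparisons. Relb differed by 0.27 and Rel by 0.18 between PT + HS and PT (standard errors 0.33 and 0.23), or by -0.06 and 0.24 without PT replicate 2. They differed in PT + HS against Ctrl by -0.09 and -0.02, and in PT against Ctrl by -0.36 and -0.20, or by -0.03 and -0.26 without that array.

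The animals of PT + HS lay closer together than those of PT in most members. For Nfkbia the SD was 0.07 in PT + HS, 0.95 in PT and 0.32 in Ctrl, and for Relb it was 0.05, 0.59 and 0.54. Without PT replicate 2 the SD in PT, from 2 animals, was 0.13 for Nfkbia and 0.17 for Relb. Most of the spread of these genes in PT thus came from this array. Nfkbie, Nfkbiz and Bcl3 kept an SD of 0.60, 0.61 and 0.63 in PT without it, from 1.02, 1.37 and 0.71 with all arrays. Over all genes the median SD was 0.21 in PT + HS, 0.31 in PT and 0.22 in Ctrl. Rel and Bcl3 went the other way, with an SD of 0.40 and 0.73 in PT + HS and 0.11 and 0.71 in PT. The difference in spread was not tested.

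Target genes of NF-kB lay on both sides of Ctrl. Of 50 measured target genes 9 rose and 2 fell at the study's thresholds in PT + HS against Ctrl (1.99% and 1.29% of all genes), 8 rose and 4 fell in PT against Ctrl (1.41% and 2.26%), and 3 rose and none fell in PT + HS against PT (0.726% and 0.396%). None of them passed an adjusted p under 0.05 from limma with all arrays, where 13, 15 and 3 had an unadjusted p under 0.05 in this order. Without PT replicate 2, 10 rose and 4 fell in PT + HS against Ctrl (2.52% and 2.04% of all genes). In PT against Ctrl 11 then rose and 2 fell, where 4.22% of all genes rose and 6.14% passed in either direction. An adjusted p under 0.05 from limma was then reached by Ier3 and Cd83 in PT + HS against Ctrl (adjusted p = 0.0459 and 0.0228) and by Ier3 in PT against Ctrl (adjusted p = 0.0454). With all arrays the median difference was 0.13, 0.09 and 0.07, beside -0.01, 0.00 and 0.00 over all genes. Mmp9, Lcn2 and Ccr7 of this list are also on the lists of cell markers used here.

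Saa3, an acute phase protein, averaged 7.60 in PT + HS, 7.38 in PT and 4.71 in Ctrl, which gave differences from Ctrl of 2.88 and 2.67 (standard error 0.58). Ier3, an early response gene, rose by 2.57 in PT + HS and 2.48 in PT over Ctrl (standard error 0.54), and Tlr2, a receptor of bacterial lipoproteins, by 1.59 and 1.66 (standard error 0.41). Il1rn, the antagonist of interleukin-1, rose by 1.22 and 0.79 (standard error 0.28) and the death receptor Fas by 0.68 and 0.74 (standard error 0.22). Csf1, a growth factor of monocytes, rose in PT by 0.82 over Ctrl (standard error 0.22), and in PT + HS its difference was 0.52. These genes lay above Ctrl in both injured groups. The differences between PT and Ctrl without PT replicate 2 were 2.95 for Saa3, 2.99 for Ier3, 2.01 for Tlr2, 1.05 for Il1rn, 0.89 for Fas and 0.65 for Csf1, all past the thresholds.

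Cd40 and Cd83, which B cells and dendritic cells express, went the other way. Cd40 fell to 5.09 in PT + HS and 5.33 in PT, against 6.21 in Ctrl (differences of -1.12 and -0.88, standard error 0.21), and Cd83 fell to 5.01 and 5.40, against 6.41 in Ctrl (a difference of -1.39 for PT + HS, standard error 0.32). In PT against Ctrl they differed by -1.01 and -0.60 without PT replicate 2. In PT + HS over PT the chemokine Ccl3 rose by 0.59 (standard error 0.19), the receptor Tnfrsf1b by 0.63 (standard error 0.21) and Marcksl1, an actin regulator, by 0.82 (standard error 0.31). PT + HS differed from Ctrl by 0.06, 0.24 and 0.41 in these genes, and none passed there. Ccl3 was weakly measured, with means of 3.95 in PT + HS, 3.36 in PT and 3.89 in Ctrl. Without PT replicate 2 none of these 3 passed, at 0.52, 0.50 and 0.58. Then 3 target genes passed as lower (3.31% of all genes), Cd83, Ccr7 and Cd69, which are named after their values were seen.

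**Figure D4:**
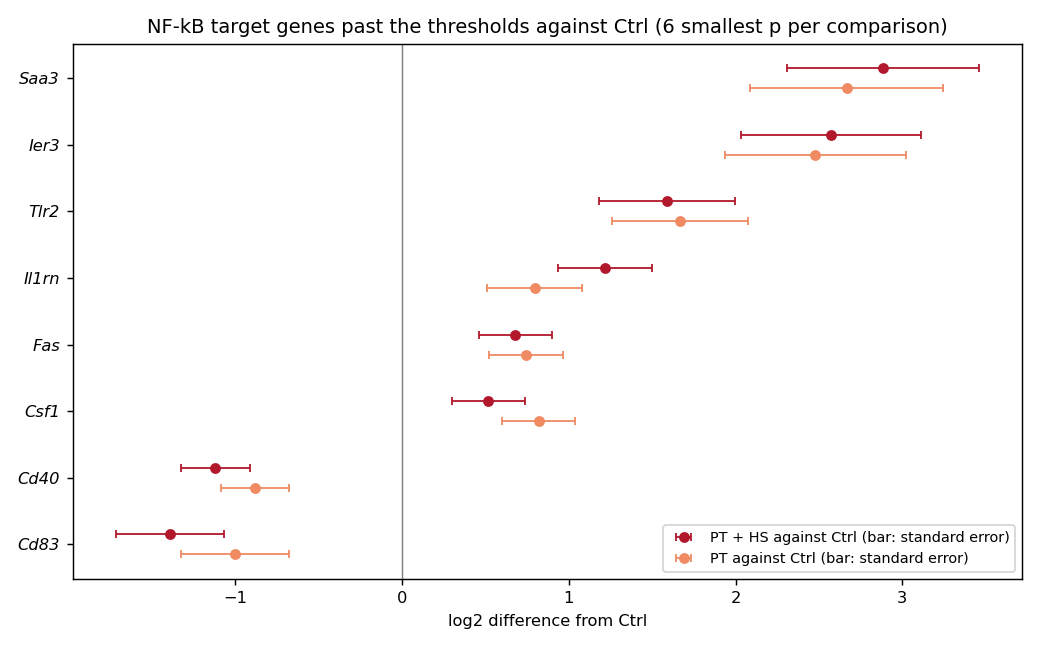
Log2 difference from Ctrl (x axis) of the NF-kB target genes with the smallest p among those past the thresholds, for PT + HS and PT, with the standard error from limma as bars. Saa3, Ier3 and Tlr2 lie furthest to the right, and Cd40 and Cd83 lie below 0 in both groups.

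Of the kinases and adaptors upstream of NF-kB, 20 of 27 listed genes were measured here. Myd88, the adaptor of most toll-like receptors, rose by 1.11 in PT + HS and 0.89 in PT over Ctrl (standard error 0.35). Tab1, an adaptor of the kinase TAK1, fell in PT against Ctrl by 0.76 and rose in PT + HS over PT by 1.06 (standard error 0.16 for both). Its adjusted p from limma was 0.389 in PT against Ctrl and 0.99997 in PT + HS against PT. Tab1 was weakly measured in PT, with means of 5.08 in PT + HS, 4.02 in PT and 4.77 in Ctrl, where the median gene had 4.29. No other listed kinase or adaptor passed in any comparison with all arrays, and the median difference of the list was 0.03 in PT + HS against Ctrl, -0.06 in PT against Ctrl and -0.05 in PT + HS against PT. Without PT replicate 2 Tab1 kept its values of -0.76 and 1.06, and the median in PT + HS against PT was -0.25. Then 4 of the list passed as higher in PT against Ctrl (4.22% of all genes), Myd88 (1.27), Ikbke (0.81), Map3k8 (1.18) and Tbk1 (0.91). Ikbkb (-0.87) and Tbk1 (-0.87) passed as lower in PT + HS against PT (3.31% of all genes). Map3k8 (0.67) in PT + HS against Ctrl then also passed as higher and Traf5 (-0.70) as lower. These kinases and adaptors other than Myd88 are named after their values were seen. Of 24 measured other inhibitors of the pathway only Trim30a, from a family with near-identical copies and therefore uncertain, passed, with 0.85 in PT + HS against Ctrl (standard error 0.38). The medians of this list were -0.01, -0.07 and 0.12. Without PT replicate 2, 3 of the other inhibitors, Zc3h12a, Nlrc3 and Cyld, likewise named after their values were seen, passed as lower in PT + HS against PT and the median was -0.14.

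Markers of several cell types differed between the same groups. In bulk blood fewer cells of a type and less RNA per cell cannot be told apart. The mean log2 level of 14 neutrophil markers was 7.62 to 8.75 in PT + HS, 7.14 to 8.35 in PT and 6.10 to 7.43 in Ctrl, and 8 of them passed as higher in PT + HS and 6 in PT against Ctrl. That of 12 B cell markers was 5.60 to 6.01 in PT + HS, 5.05 to 6.95 in PT and 6.97 to 7.90 in Ctrl, and 11 of 12 passed as lower against Ctrl in each injured group (9 of 12 in PT without PT replicate 2). Of 10 natural killer cell markers 2 passed as lower in PT + HS and 6 in PT against Ctrl. Of the monocyte list, with 11 measured genes, PT + HS exceeded PT in 3 past the thresholds, and against Ctrl 3 passed as higher and 1 as lower in PT + HS and 3 as higher and 4 as lower in PT. Of 11 platelet markers 2 passed as lower in PT against Ctrl, where 10 lay below all Ctrl arrays. Between PT and Ctrl 9.44% of all genes were without overlap in either direction. No T cell or immature red cell marker passed in any comparison with all arrays. Without PT replicate 2, 5 of 12 T cell markers passed as lower in PT + HS against PT (median -0.86, 3.31% of all genes passed). In PT against Ctrl 4 then passed as higher (median 0.61, 4.22% of all genes passed). In PT + HS against Ctrl 1 passed as higher and 1 as lower (2.52% and 2.04%). Among the PT mice, replicate 2 was the lowest and replicate 3 the highest in the T cell markers (6.39 and 8.66, with 7.56 in replicate 1). The same order held in the B cell markers (5.05 and 6.95, with 5.85 in replicate 1) and, narrowly, in the platelet markers (9.60 and 9.79, with 9.78). It also held among these mice for Rela, Relb, Nfkbia, Nfkbie, Nfkbiz and Tnfaip3. In the neutrophil and natural killer cell markers replicate 2 was again the lowest of the PT mice, and in the monocyte markers replicate 3 was. In the immature red cell markers PT replicate 2 was the highest of the 9 arrays, at 10.3. Of the neutrophil markers Mpo and Elane, and of the B cell markers Pax5 and Cr2, had a mean below the median of all genes. The part of these cell types in the results of the members was not tested.

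The genes whose levels followed those of Nfkbia most closely over the 9 arrays were Dnajc15, Klhdc2 and Il17ra, with Pearson correlations of 0.984, 0.982 and 0.978 among all 18194 genes. Dnajc15 had 6.73, 6.97 and 6.91 in the PT + HS mice, 7.19, 5.05 and 7.66 in PT replicates 1 to 3, and 5.99, 5.80 and 6.41 in the Ctrl mice. As for Nfkbia, PT replicate 2 was the lowest and PT replicate 3 the highest. The arrays share the groups and the same normalization, and the values describe these 9 arrays alone.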

How the data were processed

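Blood was drawn into RNA-stabilizing tubes and the RNA of each animal was hybridized to 1 array. The deposited values are log2 expression, which the authors derived with the robust multiarray average (background correction, quantile normalization and a summary per probe set). The versions of their programs were not found in the texts read. A Mouse Gene ST array is named in the methods, whereas the probe set names belong to another Affymetrix mouse array, whose annotation was used. Of 45101 probe sets, 34958 with exactly 1 symbol were kept, which left 18194 genes. The authors normalized and summarized the arrays together, so that a fault of 1 array can enter the values of the others.

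All 9 arrays entered 1 linear model (limma 3.58.1, R 4.3.3), with a mean per group, two-sided moderated tests and Benjamini-Hochberg adjustment over 18194 genes. It was tested on simulated data. Named are all 10 members and, per pathway list and comparison, up to 6 genes past the thresholds with the smallest p, and the 3 genes with the highest correlation with Nfkbia. The members and gene lists were chosen with earlier results of these data known. No batch is named in the labels. That the 3 arrays of a group are separate animals is taken from the paper. Promoters are from RefSeq. Alternatives were the methods' t-test, a 2-fold threshold, other normalizations and probe set rules, array weights, a replicate block and leaving out each array.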

Additional observations from a re-analysis of the deposited data

How the results depend on the processing

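Of the 10 members 0 passed the thresholds in each comparison with all arrays. In PT + HS against Ctrl 3 passed with the methods' t-test (2.98% of all genes), 3 with the arrays of the 2 groups only (4.94%), 2 with array weights (4.60%) and 1 after repeated quantile normalization (3.50%), and 0 to 3 when 1 replicate was left out. In PT + HS against PT 0 to 3 and between PT and Ctrl 0 to 3 passed when 1 replicate was left out, and 3 passed between PT and Ctrl with array weights (9.16% of all genes), which put 86.9% of the weight of the PT group on replicate 1. An adjusted p under 0.05 was reached by 1 member between PT and Ctrl with array weights and by 0 to 1 when 1 replicate was left out. Counts above 0 came without PT replicate 2, with 3 members in each comparison, and without PT replicate 3, with 1 member (Nfkbie) between PT and Ctrl. With a replicate block 0 members passed in each comparison. The deviations of same-numbered arrays from their group means had correlations of -0.12 to 0.48, the highest for replicate 3 of PT and Ctrl. The labels do not say whether arrays with the same number were processed together, and this was not tested.

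The sign of a difference changed for 17 of the 30 differences, none of them past the thresholds under either setting. With array weights Bcl3 gave -0.44 and Nfkbia -0.15 and Rela -0.032 between PT + HS and PT, and Bcl3 0.58 and Rela 0.072 between PT and Ctrl. Between PT and Ctrl Nfkb2 gave 0.061 with the mean of its probe sets, and 0.010 after repeated quantile normalization, where Nfkbid gave 0.031 and Rela 0.0021. Leaving out 1 replicate gave, between PT + HS and PT, -0.25 to 0.56 for Bcl3, -0.28 to 0.58 for Nfkbia, -0.71 to 0.31 for Nfkbie, -0.99 to 0.35 for Nfkbiz, -0.019 to 0.38 for Rel, -0.22 to 0.36 for Rela, -0.063 to 0.50 for Relb and -0.61 to 0.081 for Tnfaip3. Between PT and Ctrl it gave -0.42 to 0.28 for Bcl3, -0.25 to 0.10 for Nfkb2, -0.19 to 0.046 for Nfkbid, -0.94 to 0.084 for Nfkbie and -0.34 to 0.24 for Rela. Between PT + HS and Ctrl it gave -0.28 to 0.35 for Bcl3, -0.22 to 0.19 for Rel, -0.22 to 0.22 for Rela and -0.25 to 0.22 for Relb. The cause was not tested.

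Over all genes the number past the thresholds was 204 between PT + HS and PT, and 76 with the methods' t-test, 13 at 2-fold, 103 with the mean of probe sets, 132 of the 9097 genes above the median, 877 with array weights and 187 to 855 without 1 replicate. Between PT and Ctrl it was 668, and 293, 218, 1666 and 530 to 1493 with the t-test, at 2-fold, with array weights and without 1 replicate. In PT + HS against Ctrl it was 596, and 260 at 2-fold and 898 with the arrays of the 2 groups only. Relb and Rel, with means below the median, have no value among the genes above it.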
